A study of Mus musculus with 10 samples.

Results

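The genes described here encode the histone lysine demethylases, histone lysine methyltransferases, histone deacetylases and sirtuins whose symbols begin with Kdm, Kmt, Hdac or Sirt followed by a digit. The deposited expression table holds 16936 genes, and 44 of them carry such a symbol: 18 Kdm, 8 Kmt, 11 Hdac and 7 Sirt genes. Their levels were compared between 5 untreated and 5 plasminogen-treated samples of cultured mouse macrophages. The rule uses the symbols and no expression value. Enzymes of the same kinds with other names, such as Ezh2 and Setdb1, are therefore not among the 44 and are given as a separate list.

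All 10 samples were bone marrow-derived macrophages grown from marrow for 7 days with GM-CSF, a growth factor of granulocytes and macrophages, at 50 ng/mL. The treated group, called PLG as in the labels, received human plasminogen for 24 h, and the other group was untreated. Plasminogen is the plasma precursor of the protease plasmin. The title of the series names macrophage activation through TLR2, a receptor for bacterial lipoproteins, by lipid carried on plasminogen. The labels name no strain, genotype, dose of plasminogen or control preparation, and they tie no sample number to a mouse or a culture, so the p-values measure only the spread between these samples, which may be technical.

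Lysine residues in histone tails carry acetyl and methyl groups that mark active and silent chromatin. Deacetylases of classes I, II and IV use zinc, whereas sirtuins use NAD. The KDM1 demethylases use FAD, the larger JmjC family of demethylases uses 2-oxoglutarate and iron, and the methyltransferases take their methyl group from S-adenosylmethionine. In macrophages these enzymes are known for setting how strongly inflammatory genes respond to microbial products, and Kdm6b in particular is known as a demethylase gene that such products induce.

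The libraries held 28426106 to 64214551 reads on the genes of the table, as recovered from the steps of the deposited values, with 28426106 to 37680105 in the untreated and 33547089 to 64214551 in the PLG group. Values are FPKM, reads scaled to gene length and library size. Of the 7 macrophage markers listed, all reached a mean of 1 FPKM, and their summed level was 5842 to 7357 FPKM in untreated and 2565 to 2777 FPKM in PLG samples. Of 7 dendritic cell markers, 6 reached 1 FPKM, with sums of 305 to 345 FPKM in untreated and 678 to 749 FPKM in PLG samples, while Xcr1 lay under 0.1 FPKM. Of 6 neutrophil markers measured, 4 reached 1 FPKM (sums 10.5 to 20 and 16.6 to 26.3 FPKM), with Ly6g and Mpo under 0.1 FPKM. Of 5 mast cell and basophil markers, 2 did so (sums 2.99 to 5.1 and 5.05 to 6.84 FPKM). No marker of B cells, T and NK cells, erythroid or stromal cells reached 1 FPKM, and no sum of these lists exceeded 1.85 FPKM. These marker sums moved with the treatment, and their part in the results that follow was not tested. A sum of FPKM is set mostly by its most abundant markers and does not give the direction of each marker. In bulk samples, fewer cells of a type and less RNA per cell cannot be told apart.

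Of the 44 genes, 39 passed the filter, which asked for 1 FPKM or more in 5 or more samples, and were tested in limma on log2(FPKM + 1), with p-values adjusted over all 9997 genes tested. At an adjusted p under 0.05, 14 were higher and 7 lower with PLG, and 18 did not pass. This is 53.8% of the 39, against 60.4% of all genes tested. By direction, 35.9% were higher and 17.9% lower, against 29.1% and 31.3% over all genes. Changes of at least 0.5 on the log2 scale were seen in 6 of the 39 (15.4%, 5 higher and 1 lower), against 32.4% of all genes, 16.4% higher and 16% lower. The samples of the groups did not overlap for 18 of the 39 (46.2%), against 47.2% of all genes. The median log2 difference was 0.13 for these genes and -0.02 for all genes, and the median size of the difference, sign aside, was 0.19 and 0.30. As a family the genes were thus not called more often than other genes. The largest differences among the 39 were those of Kdm4a (1.65) and Sirt6 (1.40). The split between directions depended on the scaling. With each sample set to a common FPKM sum, 11 were higher (28.2%) and 3 lower (7.69%), against 25.6% and 21.8% of all genes. After quantile normalisation 13 were higher (33.3%) and 10 lower (25.6%), against 27.1% and 35.3% of all genes.

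**Figure D1:**
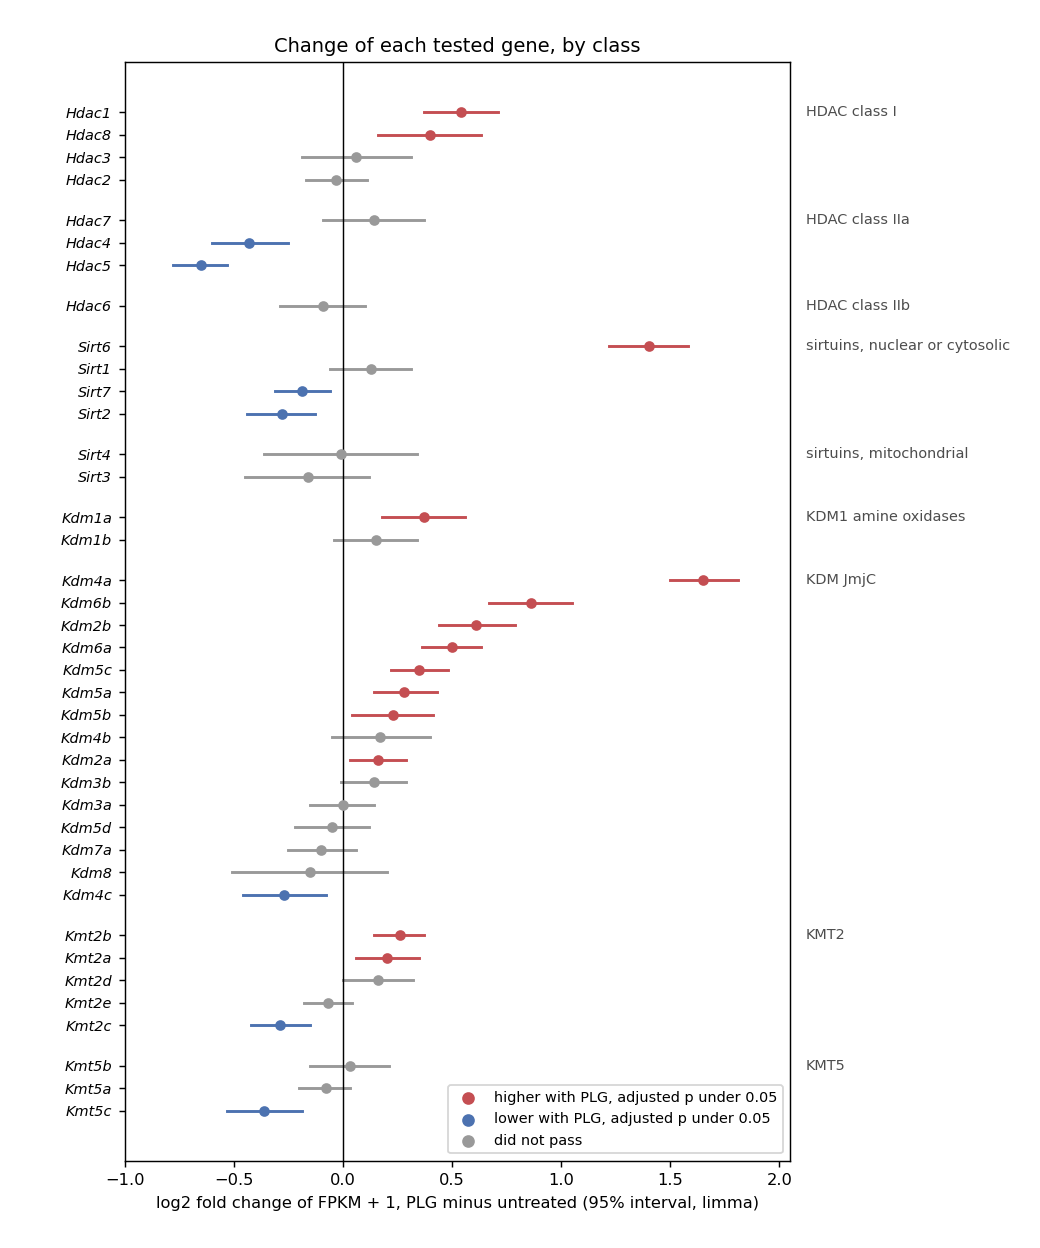
Log2 difference, PLG minus untreated, on the log2(FPKM + 1) scale for the 39 tested genes, with 95% confidence intervals from limma and colours for the call at an adjusted p under 0.05. Kdm4a (1.65) and Sirt6 (1.40) lie far above the other genes, and Hdac5 (-0.65) is the lowest.

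Among the genes that changed by 0.5 or more, or by 0.50 after rounding, Kdm4a, Hdac5 and Kdm6a have a single RefSeq promoter window that holds no exon of an annotated gene. These are shown because they stand before the demethylase gene with the largest rise, the deacetylase gene with the largest fall, and an X-linked demethylase gene that rose. Each is the 250 bases before the annotated start, 5′ to 3′ on the strand of the gene, from RefSeq on GRCm38.p6, at chr4:118180044-118180293 (minus strand) for Kdm4a, chr11:102230173-102230422 (minus strand) for Hdac5 and chrX:18162325-18162574 (plus strand) for Kdm6a. Capitals mark matches, on either strand, to the motifs searched.
Kdm4a: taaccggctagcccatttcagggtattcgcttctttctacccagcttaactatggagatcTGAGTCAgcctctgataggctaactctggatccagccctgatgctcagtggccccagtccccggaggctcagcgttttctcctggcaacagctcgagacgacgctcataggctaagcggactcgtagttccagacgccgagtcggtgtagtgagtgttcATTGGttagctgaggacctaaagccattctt
Hdac5: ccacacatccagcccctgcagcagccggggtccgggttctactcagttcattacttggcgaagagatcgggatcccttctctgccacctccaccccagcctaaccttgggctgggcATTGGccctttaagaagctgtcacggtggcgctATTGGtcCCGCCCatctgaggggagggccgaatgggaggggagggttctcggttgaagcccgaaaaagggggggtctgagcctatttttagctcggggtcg
Kdm6a: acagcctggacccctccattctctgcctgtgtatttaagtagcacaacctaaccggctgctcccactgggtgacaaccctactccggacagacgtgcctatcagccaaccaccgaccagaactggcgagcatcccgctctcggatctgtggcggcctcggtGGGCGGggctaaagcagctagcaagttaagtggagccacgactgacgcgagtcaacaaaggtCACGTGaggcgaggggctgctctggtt
The Kdm4a window holds an AP-1 match (TGANTCA) that starts 190 bases before the start and a CCAAT box that starts 31 bases before it. In the Hdac5 window CCAAT boxes start 134 and 101 bases before the start, and a GC box (GGGCGG) 94 bases before it. The Kdm6a window has a GC box at 89 and an E-box (CACGTG) at 27 bases before the start. Among all 32851 RefSeq windows of this length, 6.75% hold the AP-1 letters, 33.8% a CCAAT box, 32.7% a GC box and 6.02% the E-box. A match is a description of the letters and not of a bound site, and no binding was measured in these samples.

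Kdm4a, on chromosome 4 (118136957 to 118180043, minus strand), encodes a JmjC demethylase of trimethylated lysines 9 and 36 of histone H3. Its level was 13.9, 15.5, 17.2, 12.7 and 14.9 FPKM in untreated samples 1 to 5 and 46.4, 45.8, 51.8, 48.4 and 50.9 FPKM in PLG samples 1 to 5. Every PLG sample lay far above every untreated sample. The mean rose from 14.8 ± 1.68 to 48.6 ± 2.67 FPKM (SD, n = 5 each), a ratio of 3.28. In limma the log2 difference was 1.65 (SE 0.0714, adjusted p = 1.86e-10). Kdm4a ranked 6 among the 44 genes by mean FPKM in untreated samples and 1 in PLG samples.

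The other KDM4 genes, which encode demethylases of the same family, did not move alike. Kdm4c fell from 5.85 ± 0.824 to 4.66 ± 0.360 FPKM, with untreated samples between 5.13 and 7.18 and PLG samples between 4.20 and 5.03 FPKM (log2 difference -0.27, limma adjusted p = 0.0174). That call was lost with the common FPKM sum (adjusted p = 0.161) and without the 3 samples lowest in repeat-like gene models (adjusted p = 0.115). Kdm4b did not pass, at 7.76 FPKM in untreated and 8.81 FPKM in PLG samples (limma adjusted p = 0.164). Kdm4d encodes a shorter member of the family. It lay under the filter, with 0 reads in all untreated samples and 33, 0, 18, 35 and 40 reads in PLG samples 1 to 5. With 3 reads over the whole untreated group taken as the limit that a count of 0 allows, its level was at least 31.4-fold higher in the PLG group. This limit pools the reads of each group and leaves out the spread between samples. The exact permutation test of the sample values gave p = 0.0476 (two-sided, not adjusted). In a limma fit of all genes without the filter the adjusted p of Kdm4d was 0.00778. That value adds no support, since Kdm4d enters the fit through the PLG group only and its untreated values have no spread. PLG 2 was at 0 like the untreated samples, and the highest PLG sample reached 0.278 FPKM. The summed FPKM of the KDM4 genes was 28.4 ± 2.58 in untreated and 62.3 ± 2.99 in PLG samples (n = 5 each). Kdm4a made up 52.2% ± 3.86 of that sum in untreated and 78.1% ± 1.19 in PLG samples (SD).

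**Figure D2:**
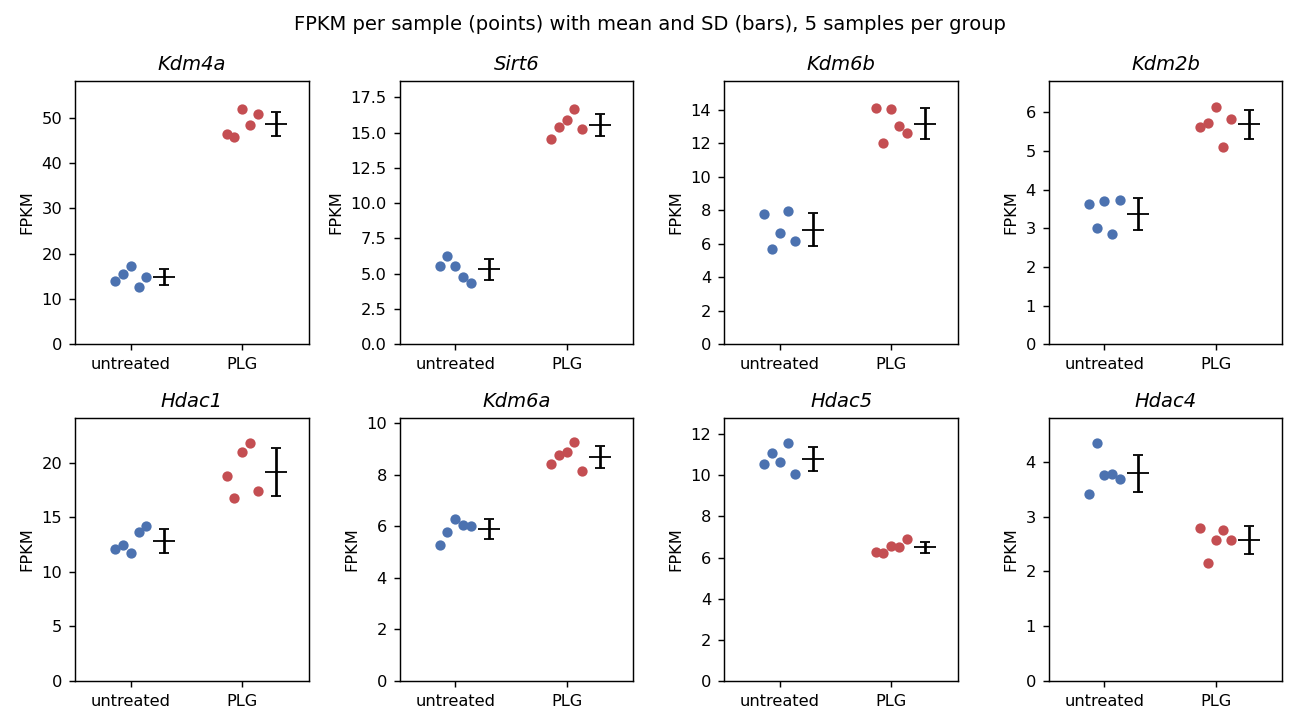
FPKM in each of the 5 untreated and 5 PLG samples (points) with mean and SD (bars), 1 panel per gene, linear axes from 0. For Kdm4a the untreated samples reach at most 17.2 and the PLG samples at least 45.8 FPKM.

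Kdm6a and Kdm6b encode demethylases of trimethylated lysine 27 of histone H3, the mark that Polycomb repressive complex 2 places. Kdm6b was at 7.77, 5.71, 6.64, 7.95 and 6.15 FPKM in untreated samples 1 to 5 and at 14.1, 12, 14.1, 13.0 and 12.6 FPKM in PLG samples 1 to 5. The groups did not overlap, and the lowest PLG sample was well above the highest untreated one. The mean rose from 6.84 ± 0.985 to 13.2 ± 0.921 FPKM, a ratio of 1.93 (log2 difference 0.86, SE 0.0866, limma adjusted p = 1.12e-06). An antisense gene, Kdm6bos, shares 286 exon bases with Kdm6b, which is 4.11% of its length. Kdm6a was at 5.26, 5.79, 6.28, 6.04 and 6.03 FPKM in the untreated and at 8.43, 8.76, 8.89, 9.26 and 8.16 FPKM in the PLG samples. Here too the groups were separate. Kdm6a rose from 5.88 ± 0.386 to 8.70 ± 0.423 FPKM (log2 difference 0.50, SE 0.0638, limma adjusted p = 1.30e-05). The ratio of Kdm6b to Kdm6a was 1.17 ± 0.214 in untreated and 1.52 ± 0.127 in PLG samples, and its ranges of 0.987 to 1.48 and 1.37 to 1.68 overlapped.

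Kdm2b encodes a demethylase of lysine 36 of histone H3 that brings a Polycomb complex to CpG islands. It was at 3.63, 3, 3.69, 2.86 and 3.72 FPKM in untreated samples 1 to 5 and at 5.62, 5.72, 6.14, 5.12 and 5.84 FPKM in PLG samples 1 to 5. All PLG samples were above all untreated ones, and the mean rose from 3.38 ± 0.416 to 5.69 ± 0.375 FPKM (log2 difference 0.61, SE 0.0822, limma adjusted p = 1.92e-05). Kdm2b shares 627 exon bases, or 5.77% of its length, with Rnf34 on the other strand, and Rnf34 itself rose from 8.33 to 11.4 FPKM. Whether the counting used strand is not given here, and reads of the overlap cannot be assigned to either gene. Kdm2a, the paralog of Kdm2b, had a smaller rise, from 10.3 ± 0.728 to 11.6 ± 0.377 FPKM, with overlapping groups (log2 difference 0.16, limma adjusted p = 0.0320). The Kdm2a call was lost when any one of untreated 3, 4 or 5 or PLG 1, 2, 3 or 5 was left out, with adjusted p-values of 0.052 to 0.0767. It was also lost with the common FPKM sum (limma adjusted p = 0.155), after quantile normalisation (0.135) and with repeat-like models removed (0.0904).

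The KDM5 genes encode demethylases of trimethylated lysine 4 of histone H3, a mark of active promoters. Kdm5c, the most abundant of them, rose from 19.5 ± 1.66 to 25.0 ± 0.904 FPKM (log2 difference 0.35, limma adjusted p = 1.56e-04). Its untreated samples lay between 18.3 and 22.3 FPKM and its PLG samples between 24.0 and 26.2 FPKM, without overlap. Kdm5a rose from 6.69 ± 0.393 to 8.35 ± 0.628 FPKM, also without overlap (0.28, limma adjusted p = 0.00248). Kdm5d, the Y-linked counterpart of Kdm5c, was at 1.59 to 2.04 FPKM in all 10 samples and did not pass (log2 difference -0.05, limma adjusted p = 0.632). Kdm5b was at 2.42 ± 0.332 and 2.99 ± 0.223 FPKM, with overlapping groups, and passed narrowly (0.23, limma adjusted p = 0.0360). The Kdm5b call was lost in 11 of 22 alternative analyses, among them those without untreated 3 or 5 and without any 1 of the PLG samples (adjusted p-values of 0.0513 to 0.0937). Summed over the family, the KDM5 level was 30.4 ± 1.55 FPKM in untreated and 38.1 ± 1.47 FPKM in PLG samples.

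Kdm1a encodes LSD1, a demethylase of mono- and dimethylated lysine 4 that works in the CoREST complex. It was at 7.53, 9.54, 6.77, 8.16 and 8 FPKM in untreated samples 1 to 5 and at 9.28, 9.74, 11.3, 11.6 and 11.1 FPKM in PLG samples 1 to 5. Untreated 2 lay above PLG 1, so the groups overlapped, although the gene rose in limma (log2 difference 0.37, adjusted p = 0.00241). Its paralog Kdm1b did not pass, at 4.34 and 4.88 FPKM (limma adjusted p = 0.168).

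Of the other JmjC genes none passed. Kdm3a and Kdm3b encode demethylases of mono- and dimethylated lysine 9. Kdm3a was at 7.26 and 7.23 FPKM in untreated and PLG samples (limma adjusted p = 0.973), and Kdm3b was at 8.37 and 9.30 FPKM (0.11). Kdm7a, which acts on lysines 9 and 27, was at 14.3 and 13.3 FPKM (0.265), and Kdm8 was at 0.906 to 2.25 FPKM in untreated and 0.678 to 1.97 FPKM in PLG samples (0.443). Over the JmjC group, 8 of 15 tested genes were higher and 1 lower, with a median log2 difference of 0.17. This is 60% called, against 60.4% of all genes, with 53.3% higher and 6.67% lower, against 29.1% and 31.3%. The JmjC sum was 117 ± 2.56 FPKM in untreated and 171 ± 5.14 FPKM in PLG samples, and Kdm4a alone made up 12.7% ± 1.36 and 28.5% ± 0.847 of it.

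**Figure D3:**
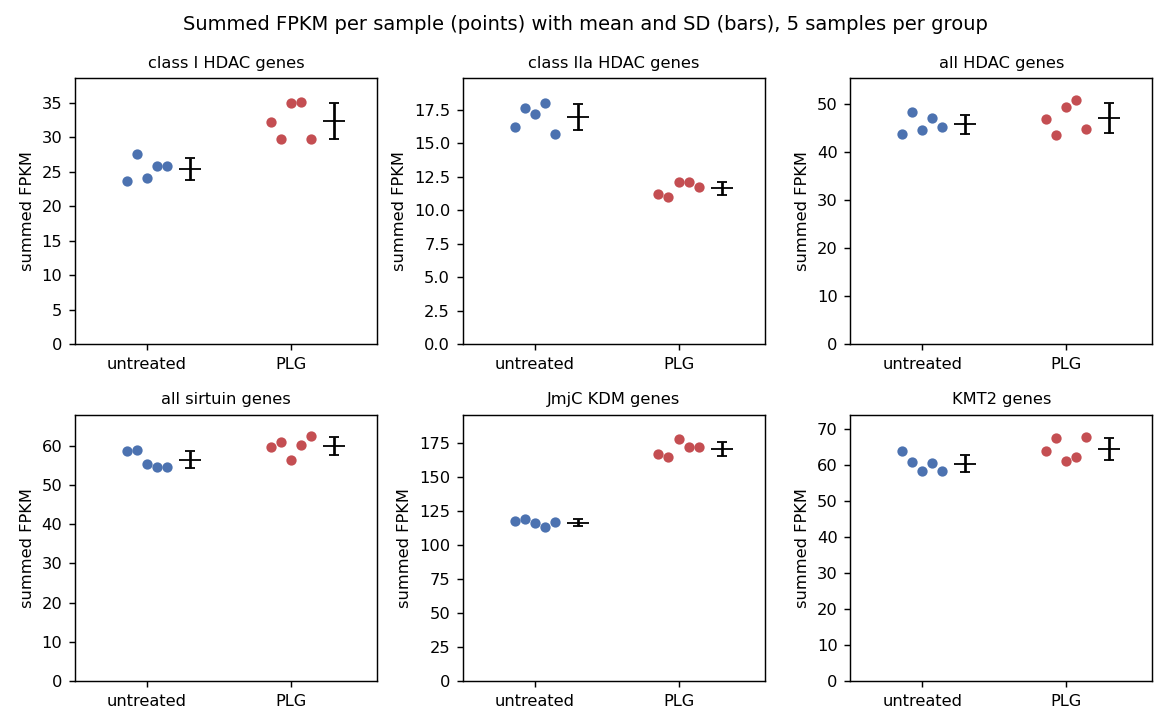
Summed FPKM of 6 enzyme classes in each sample (points), with mean and SD (bars), on linear axes from 0. The JmjC and class I sums were higher with PLG and the class IIa sum lower, each without overlap, while the sums of all HDAC, sirtuin and KMT2 genes overlapped.

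Of the zinc-dependent deacetylase genes tested, 2 of 4 in class I were higher and 0 lower, and 2 of 3 in class IIa were lower and 0 higher. Of all genes 29.1% were higher and 31.3% lower, so counts this small are near the background. Hdac1 encodes a class I enzyme of the NuRD, SIN3 and CoREST corepressor complexes. It was at 12.1, 12.4, 11.7, 13.6 and 14.2 FPKM in untreated samples 1 to 5 and at 18.8, 16.8, 21, 21.8 and 17.4 FPKM in PLG samples 1 to 5. The lowest PLG sample was above the highest untreated sample. Hdac1 rose from 12.8 ± 1.07 to 19.1 ± 2.19 FPKM, a ratio of 1.49 (log2 difference 0.54, SE 0.0797, limma adjusted p = 4.86e-05). Hdac2, its close paralog in the same complexes, was at 6.12 and 5.98 FPKM and did not pass (log2 difference -0.03, 95% confidence interval -0.17 to 0.11, limma adjusted p = 0.746). The ratio of Hdac1 to Hdac2 was 2.11 ± 0.311 in untreated and 3.20 ± 0.353 in PLG samples, with separate groups.

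Hdac3 encodes the deacetylase of the NCoR and SMRT complexes. It was at 4.69, 7.95, 5.34, 5.18 and 4.94 FPKM in untreated samples 1 to 5 and at 5.61, 5.92, 6.70, 5.72 and 5.22 FPKM in PLG samples 1 to 5. Untreated 2 was the highest of all 10, and the groups overlapped. Hdac3 did not pass (log2 difference 0.06, 95% confidence interval -0.19 to 0.31, limma adjusted p = 0.663), and without untreated 2 the difference was 0.18 (adjusted p = 0.0638). Hdac8, the remaining class I gene, was lower in level and rose from 0.833 ± 0.244 to 1.41 ± 0.213 FPKM without overlap (0.40, limma adjusted p = 0.00595). The margin was narrow, with untreated samples at 1.1 FPKM or less and PLG samples at 1.14 FPKM or more. Hdac8 reached the 1 FPKM filter mainly through the PLG group, and its call was lost without the 3 samples lowest in repeat-like models (adjusted p = 0.0597).

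Class IIa deacetylases bind MEF2 transcription factors, move between nucleus and cytoplasm, and have little catalytic activity of their own. Hdac5 was at 10.5, 11.1, 10.7, 11.6 and 10.1 FPKM in untreated samples 1 to 5 and at 6.27, 6.22, 6.56, 6.51 and 6.91 FPKM in PLG samples 1 to 5. The PLG samples were close to each other and all below the untreated samples. Hdac5 fell from 10.8 ± 0.583 to 6.49 ± 0.275 FPKM, a ratio of 0.602 (log2 difference -0.65, SE 0.0589, limma adjusted p = 3.64e-07). Hdac4 was at 3.41, 4.34, 3.76, 3.78 and 3.68 FPKM in the untreated and at 2.79, 2.15, 2.58, 2.77 and 2.58 FPKM in the PLG samples, again without overlap. It fell from 3.80 ± 0.339 to 2.57 ± 0.253 FPKM (log2 difference -0.43, limma adjusted p = 4.70e-04), and 22.4% of its length is shared with Gm26720, a long non-coding RNA gene on the other strand. Hdac7 did not pass, at 2.15 and 2.46 FPKM (log2 difference 0.14, limma adjusted p = 0.286). Hdac9 lay under the filter, with 141, 189, 78, 52 and 103 reads in untreated and 70, 90, 25, 51 and 71 reads in PLG samples 1 to 5. Its means were 0.208 and 0.0872 FPKM with overlapping groups (exact permutation p = 0.0238, two-sided), and its limma adjusted p in a fit of all genes was 0.0635.

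Of the remaining zinc-dependent genes, Hdac6, which encodes a cytoplasmic deacetylase of tubulin, was at 3.21, 2.68, 2.32, 2.72 and 2.99 FPKM in untreated and 2.79, 2.22, 2.23, 2.78 and 2.71 FPKM in PLG samples 1 to 5 and did not pass (limma adjusted p = 0.402). Hdac10, for a polyamine deacetylase, had 90, 71, 115, 48 and 103 reads in untreated and 94, 79, 10, 126 and 131 reads in PLG samples 1 to 5, with PLG 3 lowest (exact permutation p = 0.349). Hdac11, the class IV gene, had 5 reads in untreated 4 and 0 in the others, and 41, 0, 9, 3 and 44 reads in PLG samples 1 to 5 (exact permutation p = 0.0873). The summed level of class I genes was 25.4 ± 1.54 FPKM in untreated and 32.4 ± 2.67 FPKM in PLG samples, and that of class IIa genes 16.9 ± 0.962 and 11.6 ± 0.506 FPKM. Over all Hdac genes the sums were 45.8 ± 1.91 and 47.1 ± 3.08 FPKM, and the groups overlapped. Within that sum Hdac1 took 28.0% ± 2.33 in untreated and 40.5% ± 2 in PLG samples, and Hdac5 took 23.6% ± 0.952 and 13.8% ± 1.04.

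Of the 6 sirtuin genes tested, Sirt6 was higher, Sirt2 and Sirt7 were lower and 3 did not pass (50% called, against 60.4% of all genes). Sirt6, on chromosome 10 (81621785 to 81627797, minus strand), encodes a nuclear enzyme that removes acetyl groups from lysine 9 of histone H3 and acts in DNA repair and glucose metabolism. It was at 5.55, 6.26, 5.57, 4.76 and 4.36 FPKM in untreated samples 1 to 5 and at 14.5, 15.4, 15.9, 16.7 and 15.2 FPKM in PLG samples 1 to 5. Every PLG sample was well above the highest untreated sample. Sirt6 rose from 5.30 ± 0.746 to 15.5 ± 0.788 FPKM, a ratio of 2.93 (log2 difference 1.40, SE 0.0815, limma adjusted p = 3.91e-09), and moved from rank 27 to rank 7 of the 44 genes.

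Sirt2 encodes a mainly cytosolic deacetylase of tubulin and other proteins, and in untreated samples it was the most abundant of the 44 genes per length. It was at 31.2, 26.1, 26.1, 28.3 and 26.4 FPKM in untreated samples 1 to 5 and at 23.7, 23.5, 19.8, 20.6 and 25.2 FPKM in PLG samples 1 to 5. The groups were separate by a narrow margin, with PLG 5 just below untreated 2 and 3. Sirt2 fell from 27.6 ± 2.20 to 22.5 ± 2.26 FPKM (log2 difference -0.28, limma adjusted p = 0.00425), with an adjusted p of 0.0626 under the common FPKM sum. Sirt7, for a nucleolar enzyme, fell from 13.8 ± 0.920 to 12 ± 0.465 FPKM (-0.19, limma adjusted p = 0.0130). That call was lost with the common FPKM sum (0.307), with median-of-ratios scaling (0.053) and without the 3 samples lowest in repeat-like models (0.114). Sirt1, the best known nuclear sirtuin, did not pass at 5.74 and 6.33 FPKM (log2 difference 0.13, limma adjusted p = 0.216), but without untreated 2 its adjusted p was 0.0420.

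The mitochondrial sirtuins were low. Sirt3, the main mitochondrial deacetylase, was at 1.62 and 1.32 FPKM (limma adjusted p = 0.310), and Sirt4 was at 1.02, 2.13, 1.55, 1.72 and 2.74 FPKM in untreated and 1.28, 1.7, 1.58, 2.64 and 1.74 FPKM in PLG samples, spread widely in both groups (0.962). Sirt5, which removes succinyl and malonyl groups, lay under the filter with 132, 119, 94, 125 and 149 reads in untreated and 103, 121, 115, 118 and 214 reads in PLG samples 1 to 5, or 0.556 and 0.454 FPKM (exact permutation p = 0.0714). The ratio of Sirt6 to Sirt7 was 0.384 ± 0.0378 in untreated and 1.30 ± 0.0963 in PLG samples. Sirt6 made up 10.1% ± 1.16 of the summed nuclear and cytosolic sirtuin level in untreated and 27.6% ± 2.1 in PLG samples, and Sirt2 made up 52.7% ± 3.26 and 39.9% ± 2.68. The sum over all sirtuins was 56.4 ± 2.17 and 59.9 ± 2.26 FPKM, with overlapping groups.

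Of the 8 methyltransferase genes, 2 were higher and 2 lower (50% called, against 60.4% of all genes), with log2 differences between -0.36 and 0.26. The KMT2 genes encode methyltransferases of lysine 4 of histone H3, with Kmt2a and Kmt2b acting mainly at promoters and Kmt2c and Kmt2d mainly at enhancers. Kmt2b rose from 12.1 ± 0.568 to 14.6 ± 0.460 FPKM, with untreated samples at 11.5 to 12.9 and PLG samples at 14.2 to 15.2 FPKM (log2 difference 0.26, limma adjusted p = 7.07e-04). Kmt2c fell from 6.51 ± 0.363 to 5.16 ± 0.173 FPKM, with 6.03 to 6.87 FPKM in untreated and 5.01 to 5.41 FPKM in PLG samples (-0.29, limma adjusted p = 0.00128, and 0.0841 under the common FPKM sum). Both pairs of groups were free of overlap, and the ratio of Kmt2b to Kmt2c was 1.86 ± 0.188 in untreated and 2.83 ± 0.131 in PLG samples. Kmt2a rose from 7.08 ± 0.434 to 8.31 ± 0.568 FPKM (0.20, limma adjusted p = 0.0160), a call lost under the common FPKM sum (0.0627) and with repeat-like models removed (0.0539).

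Kmt2d, the most abundant KMT2 gene, was at 21.9, 21, 17.4, 20.8 and 18.3 FPKM in untreated samples 1 to 5 and at 21.4, 24.4, 19.9, 21.8 and 24 FPKM in PLG samples 1 to 5. The groups overlapped, and Kmt2d did not pass (log2 difference 0.16, limma adjusted p = 0.0794). Without untreated 1 its adjusted p was 0.0448, and without PLG 3 it was 0.0386. Kmt2e, which encodes a protein without known methyltransferase activity on histones, was at 14.9 and 14.1 FPKM (0.262), and 9.31% of its length is shared with Srpk2, which fell. Of the KMT5 genes, which act on lysine 20 of histone H4, Kmt5c fell from 10.4 ± 1.02 to 7.87 ± 0.777 FPKM, with 9.24 to 12 FPKM in untreated and 7.06 to 9.15 FPKM in PLG samples (-0.36, limma adjusted p = 0.00141). Kmt5a, the monomethyltransferase and the most abundant of them, was at 23.7, 25.1, 24.4, 25.9 and 24 FPKM in the untreated and at 21.5, 22.3, 23.1, 25 and 24.1 FPKM in the PLG samples. These groups overlapped (limma adjusted p = 0.179). Kmt5b was at 4.11 and 4.22 FPKM (limma adjusted p = 0.745). Over all Kmt genes the summed level was 99.5 ± 3.01 FPKM in untreated and 99.8 ± 2.73 FPKM in PLG samples.

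**Figure D4:**
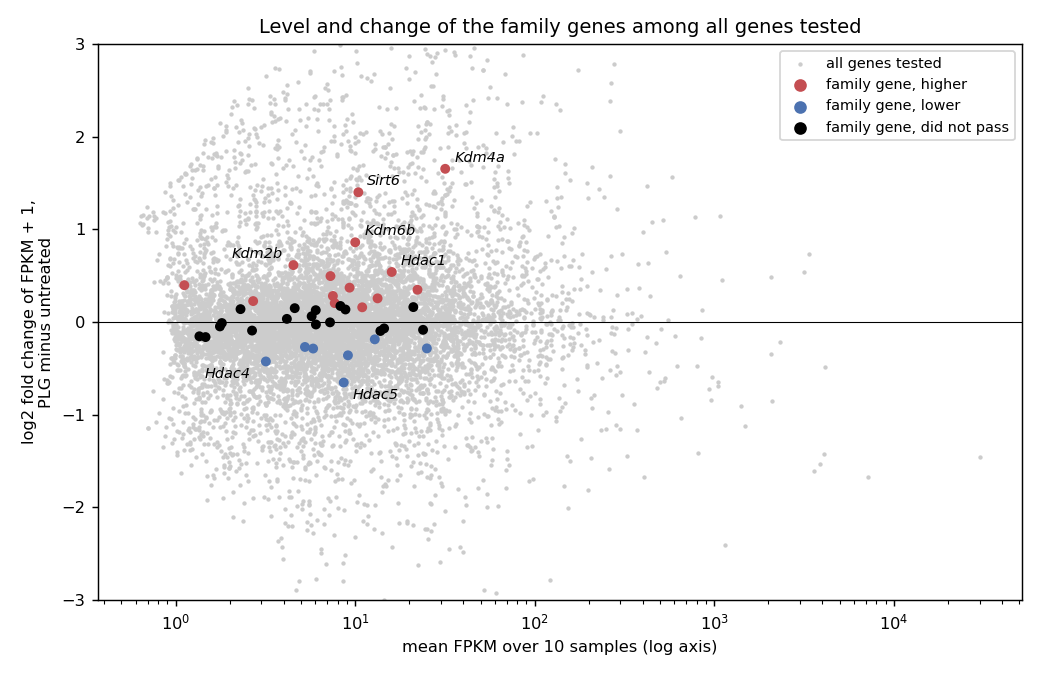
Mean FPKM over all 10 samples (log axis) against the log2 difference, PLG minus untreated, for the genes tested (grey) and the 39 tested histone-modifying genes (coloured); 104 genes lie outside the vertical range of 3 either way. The histone-modifying genes lie at 1.12 to 31.7 FPKM, with Kdm4a and Sirt6 set above the others.

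Enzymes and subunits that work with these proteins were listed in 11 groups, of which 168 different genes were tested. Of these 42 were higher and 52 lower (56% in all, against 60.4% of all genes), with a median log2 difference of -0.00. The lists were chosen with earlier results of these data known, and the shares given for them carry no test. In Polycomb repressive complex 2, which places the mark that KDM6 enzymes remove, 7 of 9 tested genes were higher (77.8%, against 29.1% of all genes) and 0 lower, with a median of 0.28. Aebp2, an accessory subunit, rose from 9.95 ± 0.604 to 26.7 ± 1.78 FPKM (log2 difference 1.34, limma adjusted p = 2.97e-10). Ezh2, the catalytic subunit, rose from 2.14 ± 0.157 to 4.31 ± 0.389 FPKM (0.76, limma adjusted p = 1.47e-06), whereas its paralog Ezh1 was at 9.90 and 10.9 FPKM and did not pass (0.128). Ezh2, on the side that places this mark, and Kdm6a and Kdm6b, which remove it, were all higher in PLG samples.

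Among 34 tested subunits of HDAC corepressor complexes, 8 were higher and 8 lower (47.1% called, against 60.4% of all genes), with a median of 0.04. Rcor1, the CoREST scaffold that joins LSD1 to HDAC1 and HDAC2, fell from 21.7 ± 1.70 to 11.7 ± 0.664 FPKM (log2 difference -0.83, limma adjusted p = 6.04e-08). Chd3, a NuRD remodeller, fell from 10.3 ± 0.675 to 5.65 ± 0.325 FPKM, and Tbl1xr1, of the NCoR complex, fell from 30 ± 2.29 to 18.4 ± 1.06 FPKM. Mier3, a scaffold that binds class I enzymes, rose from 2.59 ± 0.153 to 5.02 ± 0.450 FPKM. Of 16 genes for MEF2, 14-3-3 and kinase partners of class IIa enzymes, 10 were lower (62.5%, against 31.3% of all genes) and 2 higher, with a median of -0.18. Camkk2, a kinase upstream of CaM kinases, fell from 13.8 ± 0.722 to 7.53 ± 0.253 FPKM (-0.80, limma adjusted p = 2.28e-08), and Sik3, a kinase of class IIa enzymes, rose from 9.24 ± 0.753 to 15.8 ± 1.05 FPKM (0.72, limma adjusted p = 6.05e-07).

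Of 16 COMPASS and KMT2 complex genes 1 was higher and 4 were lower (31.2% called, against 60.4% of all genes), with a median of -0.07. Psip1, which tethers the KMT2A complex to chromatin, rose from 2.94 ± 0.558 to 5.88 ± 0.687 FPKM, and Wdr5, a core subunit, fell from 10.4 ± 0.739 to 7.43 ± 0.885 FPKM. Other lysine methyltransferases split evenly, with 6 of 22 higher and 6 lower (54.5% called). The Setdb genes, for methyltransferases of lysine 9, moved in opposite directions, with Setdb2 rising from 4.22 ± 0.509 to 6.47 ± 0.515 FPKM and Setdb1 falling from 10.5 ± 1.13 to 7.59 ± 0.426 FPKM. Of 13 JmjC proteins with other names, 4 were higher and 3 lower (53.8% called), and Hr, the hairless corepressor, fell from 4.05 ± 0.801 to 0.487 ± 0.142 FPKM (log2 difference -1.76, limma adjusted p = 1.18e-08). Hr passed the 1 FPKM filter through the untreated group only. Of 18 acetyltransferase genes 5 were higher and 6 lower (61.1% called). Hat1, which acetylates new histone H4, rose from 5.15 ± 0.833 to 12 ± 1.39 FPKM, Ncoa1 fell from 11.5 ± 0.937 to 5.56 ± 0.456 FPKM, and Ep300 did not pass at 18.1 and 17.9 FPKM (limma adjusted p = 0.833). Of the 3 tested BET genes, which read acetylated lysine, Brd2 rose from 36.9 ± 1.10 to 50.7 ± 1.38 FPKM.

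The enzymes that supply or use the cosubstrates formed the last groups. Of 12 NAD genes 6 were higher and 2 lower (66.7% called, against 60.4% of all genes), with a median log2 difference of 0.22. Nampt, the rate-limiting enzyme of NAD salvage, rose from 57.9 ± 5.31 to 90.9 ± 5.96 FPKM, and Cd38, which degrades NAD, rose from 6.34 ± 0.920 to 75.5 ± 2.50 FPKM (3.39, limma adjusted p = 3.80e-13). Of 17 genes that make or use 2-oxoglutarate, succinate or itaconate, 10 were lower (58.8%, against 31.3% of all genes) and 2 higher, with a median of -0.36. Acod1, which makes itaconate, rose from 63.7 ± 6.89 to 1272 ± 38.9 FPKM (4.31, limma adjusted p = 1.44e-14). Idh1, which makes 2-oxoglutarate, fell from 91.1 ± 7.17 to 46.9 ± 2.88 FPKM, and Sdha, a subunit of succinate dehydrogenase, fell from 62.2 ± 2.04 to 42.6 ± 2.55 FPKM. Of 9 genes of S-adenosylmethionine supply 3 were lower and 1 higher (44.4% called), and Mtr, methionine synthase, fell from 5.21 ± 0.184 to 2.87 ± 0.277 FPKM. These are RNA levels, and neither the metabolites nor histone marks were measured here.

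In the GENCODE M21 annotation, 18 of the 44 genes share exon bases with another gene and 8 with a protein-coding gene. Sirt2 shares 42 bases (0.834% of its length) with Nfkbib, which rose from 12.8 to 55.6 FPKM. Sirt7 shares 124 bases (2.41%) with Mafg, which rose from 23.4 to 32.4 FPKM. Sirt3 shares 418 bases (7%) with Ric8a and 342 bases (5.73%) with Psmd13, at 13.2 and 17.1 FPKM in untreated samples. Kdm1b shares 505 bases (9.19%) with Dek, and Kdm3b shares 3468 bases (24.6%) with Gm26538. The part of these overlaps in the levels was not tested. Kdm4a is not among the genes that share exon bases. The gene models that resemble repeats, Gm10800, Gm10801 and Gm21738, together held 1830 to 82700 FPKM per sample. Without the 3 samples lowest in them (untreated 2, PLG 3 and PLG 4), 13 members were higher (33.3%) and 5 lower (12.8%). Of all genes tested, 26% were higher and 29.6% lower in that fit.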

How the data were processed

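RNA of 5 untreated and 5 PLG samples was sequenced, with groups and numbers taken from the labels. The 44 genes and the partner and marker lists were chosen with earlier results of these data known. The authors deposited FPKM per protein-coding gene with gene lengths and positions, per the file headers. Build GRCm38.p6 and the tools STAR 2.7.3a, featureCounts 2.0.0, cutadapt 2.10, DESeq2 1.24.0 and FastQC 0.11.9 are named, without their roles, per the submitters' processing notes. For strand setting, annotation release and multi-mapping reads, the handling was not given in the sources used here.

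Genes with at least 1 FPKM in 5 of 10 samples were tested (9997) on log2(FPKM + 1), which understates changes of low genes, in limma 3.58.1 (R 4.3.3) with an intensity trend and Benjamini-Hochberg adjustment over all of them, threshold 0.05. Because the unit is FPKM, no count model was the main test. FPKM times length fell on whole reads for 100% of values tested (tolerance 0.1 read), which gave the reads behind each value. Over the samples 47.8% to 51.6% of these read numbers were odd, so the totals are not doubled, and 1 read on a 1 kb gene is worth 0.0141 to 0.0313 FPKM. Genes under the filter were compared by a two-sided exact permutation test of 5 against 5 samples. Sums and ratios carry no test. Values per sample are given for genes past the threshold with a log2 change of 0.5 or more, for the most abundant gene of each class and, as reads, for genes under the filter. Sample values of other genes were chosen after they were seen. Partner genes named are among the 4 of each list with the smallest p and the 2 most abundant that did not pass. Alternatives were other scalings, filters, pseudocounts, moderation, a replicate block and leaving out each sample, with voom on the recovered reads, removal of the repeat-like models and omission of 3 samples added after the data were seen. Of the steps, only the limma fit was tested on simulated data, in which few genes changed. It recovered 36% of 1.25-fold and 88% of 1.5-fold changes. Promoter windows are from RefSeq (34 of the 44 genes matched).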

Additional observations from a re-analysis of the deposited data

Results flagged for a closer look

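In 3 of 88 groups of 5 samples, 1 sample stood far from the other 4 by Dixon's criterion, which chance meets in about 1 in 20 groups. Hdac3 was at 7.95 FPKM in untreated 2, against 4.69 to 5.34 FPKM in the other untreated samples. Kdm5b was at 3.39 FPKM in PLG 4, against 2.85 to 2.93 FPKM in the other PLG samples, and without PLG 4 its limma adjusted p was 0.0937. Hdac11 was at 0.041 FPKM (5 reads) in untreated 4 and at 0 in the other untreated samples. With the others at 0, any value above 0 meets the criterion, so the stated chance does not hold for Hdac11.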

How the results depend on the processing

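The 21 calls among the 39 genes were recomputed under 23 alternatives, of which 20 were planned and 3 were added after the data were seen. In every alternative that tested them, 13 kept their call, among them Kdm4a (log2 difference 1.44 to 1.71), Sirt6 (1 to 1.54), Kdm6b (0.62 to 0.94), Hdac1 (0.42 to 0.59), Hdac5 (-0.74 to -0.46) and Hdac4 (-0.57 to -0.22). Hdac8, Kdm2a, Kdm4c, Kdm5b, Kmt2a, Kmt2c, Sirt2 and Sirt7 lost it in 1 or more, and 6 of the 18 others passed in 1 or more. None of the 39 took the opposite sign with a call. With the common FPKM sum, which the repeat-like models enter, 3 members (7.69%) and 33 partner genes (19.6%) were lower. In the main fit these were 7 (17.9%) and 52 (31%). Over all genes tested the share that was lower also fell, to 21.8% from 31.3%. After quantile normalisation the log2 difference of Ywhaz was -0.21, of Ywhag -0.09 and of Glud1 -0.13, against 0.05, 0.09 and 0.08, and the cause was not tested. Leaving out 1 sample at a time gave 12 to 15 members higher and 7 lower. Over the whole table it gave 2701 to 2978 genes higher and 2936 to 3133 lower.

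After the mean of its group was subtracted for each gene, samples with the same number correlated at -0.121 to 0.0988 across genes. Of 10 samples, 2 correlated best with their own number, so these values gave no sign that the numbers pair the samples. With the replicate number as a block, 14 members were higher and 7 lower, and 2797 and 2988 genes over the table.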

Other observations

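The promoter windows of the histone-modifying genes were richer in CpG and GC boxes than RefSeq windows as a whole. They were not compared with windows of genes expressed in these samples. RefSeq gave 49 windows for 34 of the 44 genes, with a median of 16 CpG per 250 bases, against 6 over all 32851 windows. The GC box (GGGCGG, either strand) was in 61.2% of these 49 windows, against 32.7% of all windows, and the TATA box (TATAAA) in 6.12%, against 12.4%. An NF-kB motif was found in 12.2% of them, against 7.25%, in windows of Kdm2b, Kdm5b, Sirt2, Sirt3, Sirt5 and Sirt6. The interferon response element core and the CRE (TGACGTCA) were in 0 of the 49, against 2.98% and 1.55% of all windows. Windows of 1 gene can overlap, so these shares describe the letters and carry no test.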
